A study of Mus musculus with 4 samples.

Results

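The genes described here encode subunits of the oxidative phosphorylation system, the respiratory chain complexes I to IV, the mobile carrier cytochrome c and the ATP synthase (complex V), all of them encoded in the nucleus. They were chosen by name from a list of 46 subunits, and a probe counted when the platform annotation gave it a single gene symbol equal to a listed one. Of the 46, 45 had such a probe among 19087 genes in all, and Atp5f1 was not analysed here. Complex I had 15 measured genes, complex II 4, complex III 6, complex IV 9 and complex V 10, with Cycs given by itself.

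Liver RNA was compared on 4 two-colour arrays, where RNA of a pair of animals, each labelled with its own dye, is hybridised together. An array held a male C57Bl/6 mouse with a Wrn mutation, which leaves the helicase domain of that RecQ protein nonfunctional, and treated with resveratrol, a plant polyphenol, beside an untreated male wild-type mouse of the same strain. All animals were 9 months old, fed without restriction and kept on a reversed light-dark cycle. Every array had its own mutant (4 animals), but only 2 wild-type mice were used, one on arrays 1 and 3 and one on arrays 2 and 4, so that each appeared once in either dye. The labels used here state neither dose nor duration. Genotype and treatment differed together, so their contributions cannot be told apart, and in whole liver fewer cells of a type and less RNA per cell cannot be told apart either.

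Values are log ratios as deposited, averaged over a gene's probes, 1 value per array. They are read as log2. The values do not tell this from a natural log, which would make each fold larger. A positive value is likely treated mutant over untreated wild type, judged by the title of the series and by which animal is channel 1, and the dyes do not settle it. On arrays 1 and 2 Cy5 marked the mutant, on arrays 3 and 4 Cy3 did, and whether both pairs were deposited with the ratio running the same way is not stated. Means over 4 arrays therefore assume that they do, and values within each dye orientation are given as well. Correlations over all 43379 probes were 0.19 between arrays 1 and 2 and 0.21 between arrays 3 and 4, and from -0.18 to 0.11 between arrays of opposite orientation. A ratio carries no level, so neither the abundance of a transcript nor the liver identity of the samples could be checked, and the number of arrays limits the precision.

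Oxidative phosphorylation passes electrons from NADH (through complex I) and from succinate (through complex II) to ubiquinone, then through complex III and cytochrome c to complex IV, where oxygen is reduced. Complexes I, III and IV pump protons across the inner mitochondrial membrane, and complex V lets them flow back to make ATP. Hepatocytes rely on this system to power gluconeogenesis, urea synthesis and lipid handling. Most subunits are nuclear genes, and a small core of complexes I, III, IV and V is encoded in mitochondrial DNA.

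None of the 45 measured subunits passed the adjusted threshold. Limma, a linear model fitted to all 19087 genes with Benjamini-Hochberg adjustment, called 0 of the 45 at an adjusted p under 0.05, against 0.246% of all genes (47). The subunits' adjusted p-values lay between 0.519 and 0.999. Sdhb was the 1 subunit with an unadjusted p under 0.05, or 2.22% of the 45, against 6.64% of all genes. Of the 45 means, 23 lay above 0 and 22 below, and their median was 0.00053, beside -0.0046 for all genes.

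The subunits' ratios were narrow in range beside those of all genes. Dim probes could not be left out of either set. Their means ran from -0.27 (Ndufb3) to 0.60 (Sdhb), with an SD over genes of 0.17, whereas the means of all genes had an SD of 0.39. Only Sdhb had a mean over 0.5 in size, so that 97.8% of the subunits lay within that bound, as did 88.0% of all genes. The median SD over the 4 arrays was 0.27 for a subunit and 0.46 for a gene of the whole table. Limma's 95% interval reached a median of 0.46 to either side of a subunit's mean, from 0.41 to 0.93. For 42 of the 45 subunits (93.3%) the interval lay between -1 and 1, that is, within 2-fold in either direction, against 73.7% of all genes. The exceptions were Sdhb, Atp5j and Ndufs1, whose upper limits were 1.03, 1.06 and 1.17. These intervals treat the 4 arrays as independent, although each wild-type animal was used on 2 of them.

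**Figure D1:**
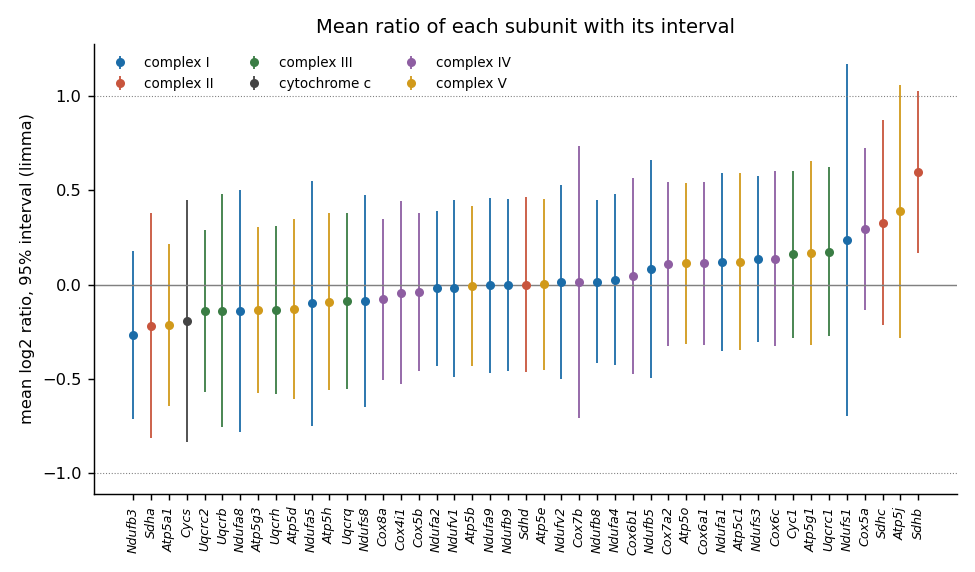
Mean log2 ratio of each of the 45 subunits over 4 arrays (points, coloured by complex) with limma's 95% interval (bars), ordered by mean. The dotted lines mark 2-fold in either direction. Of the 45 intervals 44 include 0, and the interval of Sdhb runs from 0.17 to 1.03.

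Complex I, the NADH dehydrogenase that feeds most electrons into the chain, had no gene past the threshold. The mean over its 15 genes was -0.0075 on array 1, -0.22 on array 2, 0.22 on array 3 and 0.011 on array 4. Arrays 2 and 3 lay at the ends, on opposite sides of 0, and the mean of the 4 was 3.4e-05 ± 0.18 (SD, n = 4 arrays). With the sign of arrays 3 and 4 turned it was -0.11 ± 0.12. Of the 15 genes 7 had a mean above 0 and 8 below, and 0 passed in either direction. The lowest adjusted p in limma was 0.873, that of Ndufb3.

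Ndufb3, an accessory subunit of the membrane arm, had log2 ratios of -0.41, -0.48, -0.11 and -0.060 on arrays 1 to 4. It was below 0 on all 4 arrays and was the one complex I gene with a single sign throughout. Its mean was -0.27 ± 0.21, with an interval from -0.71 to 0.18. Ndufs1, the largest core subunit, which holds iron-sulfur clusters, had the highest mean of the complex at 0.24 ± 1.04 and also the widest spread of all 45 genes. Its ratios were 0.35, -0.40, 1.66 and -0.66, so the sign of the mean rested on array 3, and without that array the mean was -0.24.

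Among the other core subunits of the matrix arm, Ndufv1, which binds NADH, stood at -0.020 ± 0.28 and its partner Ndufv2 at 0.014 ± 0.39. Ndufs3 and Ndufs8 had means of 0.14 ± 0.20 and -0.086 ± 0.47. The accessory subunits of that arm, Ndufa2, Ndufa5 and Ndufa9, had means of -0.020, -0.098 and -0.0037. Ndufa2 was the steadiest of the 45 genes, with ratios between -0.088 and 0.033. In the membrane arm Ndufa1, encoded on the X chromosome, had a mean of 0.12, Ndufa8 -0.14, Ndufb5 0.082, Ndufb8 0.016 and Ndufb9 -0.0020. Over the 8 matrix-arm genes the mean was 0.020 ± 0.29, and over the 6 membrane-arm genes it was -0.031 ± 0.086 (SD, n = 4 arrays). Ndufa4, named for complex I and now counted as a subunit of complex IV, had a mean of 0.027 ± 0.24. Moving it to complex IV left complex I at -0.0019 and complex IV at 0.059.

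Complex II, succinate dehydrogenase, links the citric acid cycle to the chain and is made entirely of nuclear-encoded subunits. It was the only one of the 5 complexes whose mean was above 0 on every array, at 0.25, 0.20, 0.14 and 0.12 on arrays 1 to 4. The mean of the 4 was 0.18 ± 0.060 (SD, n = 4 arrays), or 0.27 when the median replaced the mean over a gene's probes. With the trend over the array surface subtracted it was 0.26 ± 0.20. The complex then no longer lay above 0 on array 2, where Sdhd stood at -0.76. The mean as deposited rested on few genes: of the 4, Sdhb and Sdhc were high, Sdhd was near 0 and Sdha was below it.

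Sdhb, the iron-sulfur subunit that carries electrons from the flavin toward ubiquinone, had log2 ratios of 0.59, 0.39, 0.76 and 0.65 on arrays 1 to 4. It was above 0 on all 4 arrays, and its lowest value exceeded the SD over arrays. Its mean was 0.60 ± 0.16, or 1.51-fold, from a single probe. Limma gave an unadjusted p of 0.0137 and an adjusted p of 0.519 (n = 4 arrays), so the difference did not pass. Limma with the shared wild-type mouse as a random effect gave an adjusted p of 0.162. That fit was a looser test, since its estimated correlation within an animal was negative (-0.37), and 194 of all genes passed in it, against 47. With the trend over the array surface subtracted the 4 ratios of Sdhb spread to 1.45, 0.12, 0.14 and 0.72.

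The promoter of Sdhb is shown because Sdhb had the largest mean ratio of the set. These are the 120 bases before the start site, RefSeq sequence of build GRCm38.p6, chr4:140961151-140961270, plus strand, with the letters GCATGCGC in capitals. They form the core of the motif of NRF1, a transcription factor of many nuclear genes for mitochondrial proteins.

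Sdhb: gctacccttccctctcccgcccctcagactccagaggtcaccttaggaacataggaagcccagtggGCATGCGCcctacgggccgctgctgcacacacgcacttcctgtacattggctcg

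Sdha, the flavoprotein that oxidises succinate, had a mean of -0.22 ± 0.54, and its 3 probes disagreed by more than any others of the set. Their means were 0.29, 0.16 and -1.10. The low probe had ratios of 0.27, 0.11, -3.58 and -1.20 on arrays 1 to 4, so it was low only where the mutant carried Cy3. This probe was designed to another accession than the other Sdha probes, which were above 0 on at least 3 of the 4 arrays. With the median over the 3 probes Sdha stood at 0.14. Of the membrane anchors, which hold a heme and the ubiquinone site, Sdhc had a mean of 0.33 ± 0.44, with 0.95 on array 3 and -0.048 to 0.34 elsewhere, and Sdhd a mean of 0.00053 ± 0.27.

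Complex III, the cytochrome bc1 complex, had means of -0.025, -0.11, -0.039 and 0.070 on arrays 1 to 4. Its overall mean was -0.027 ± 0.075 (SD, n = 4 arrays), the values lay on both sides of 0, and 0 of its 6 genes passed. The highest was Uqcrc1, a core protein on the matrix side, with ratios of 0.34, 0.39, -0.073 and 0.048 and a mean of 0.18 ± 0.22. Cyc1, which encodes cytochrome c1, the subunit that hands electrons to cytochrome c, had a mean of 0.16 ± 0.20. The lowest was Uqcrc2, the other core protein, with ratios of -0.042, -0.37, -0.086 and -0.064. It was below 0 on every array, at -0.14 ± 0.15, and array 2 lay apart from the others. The small subunits Uqcrb, Uqcrh and Uqcrq stood at -0.14 ± 0.57, -0.13 ± 0.21 and -0.086 ± 0.27.

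Complex IV, cytochrome c oxidase, had means of 0.086, -0.17, 0.13 and 0.20 on arrays 1 to 4, below 0 on array 2 alone. The mean was 0.062 ± 0.16 (SD, n = 4 arrays), and 6 of its 9 genes had a mean above 0. Cox5a, a subunit on the matrix face, had ratios of 0.39, 0.33, 0.083 and 0.37, above 0 on all 4 arrays. Its mean of 0.30 ± 0.14 was the highest of the complex, and its limma adjusted p was 0.850. Cox8a, the ubiquitous form of the smallest subunit, was lowest at -0.078 ± 0.14, with ratios of 0.11, -0.21, -0.17 and -0.045.

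The isoforms of complex IV typical of liver did not pass: Cox6a1 had a mean of 0.11 ± 0.17 and Cox7a2 of 0.11 ± 0.18. Cox4i1, the ubiquitous regulatory subunit, stood at -0.042 ± 0.32, Cox5b, which binds zinc, at -0.040 ± 0.094, and Cox6c at 0.14 ± 0.27. Cox6b1, on the side of the membrane that faces cytochrome c, stood at 0.047 ± 0.40. Cox7b, a small subunit encoded on the X chromosome, had a mean of only 0.015 but an SD of 0.74. Cytochrome c itself, Cycs, had ratios of -0.85, -0.57, 0.42 and 0.23, the same way round as Cox7b. Its mean of -0.19 ± 0.62 stood for neither pair of arrays.

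Complex V, the ATP synthase, had means of 0.14, -0.084, 0.011 and 0.019 on arrays 1 to 4 and an overall mean of 0.022 ± 0.093 (SD, n = 4 arrays). Of its 10 measured genes 5 were above 0 and 5 below, with 0 past the threshold. The highest was Atp5j, coupling factor 6 of the peripheral stalk, with ratios of 1.16, -0.42, 0.54 and 0.27. Array 2 was on the other side of 0, and the mean of 0.39 ± 0.66 had a limma adjusted p of 0.875. The lowest was Atp5a1, the F1 alpha subunit, with ratios of -0.40, -0.061, -0.12 and -0.28. It was below 0 on all 4 arrays, at -0.21 ± 0.15, yet its 3 probes had means of -0.64, -0.20 and 0.21.

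The catalytic F1 subunit Atp5b was close to 0 at -0.0087 ± 0.13, with its 3 probes between -0.048 and 0.020. The central stalk genes Atp5c1, Atp5d and Atp5e had means of 0.12, -0.13 and 0.0024. Atp5g1 and Atp5g3, separate genes for the same mature protein of the c-ring, stood at 0.17 ± 0.32 and -0.13 ± 0.19, and both intervals included 0. Of the peripheral stalk, Atp5o, the oligomycin sensitivity-conferring protein, was above 0 on all 4 arrays at 0.11 ± 0.14, and Atp5h stood at -0.089 ± 0.28. Over the 5 genes of F1 the mean was -0.045 ± 0.085, and over the 5 measured genes of Fo and the peripheral stalk it was 0.090 ± 0.11.

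**Figure D2:**
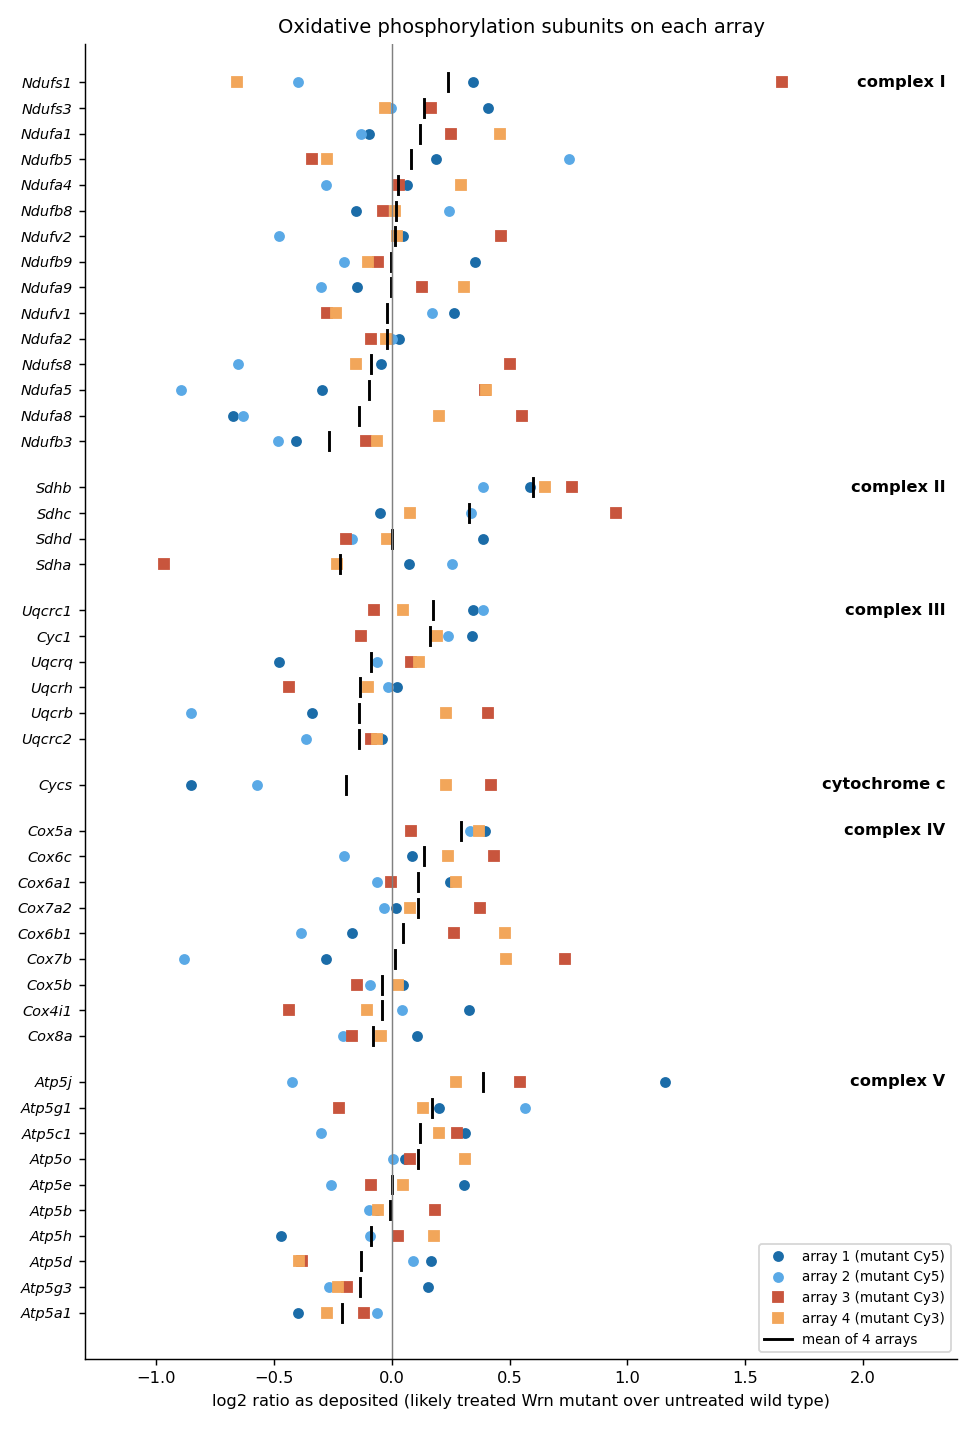
Log2 ratio of each of the 45 subunits on each array, grouped by complex and ordered by mean within it. Circles are arrays 1 and 2 (mutant in Cy5), squares arrays 3 and 4 (mutant in Cy3), and black bars the means of the 4 arrays. Sdhb has all 4 points to the right of 0, whereas Cycs, Cox7b, Uqcrb, Ndufa5 and Ndufa8 have their circles on the left and their squares on the right.

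**Figure D3:**
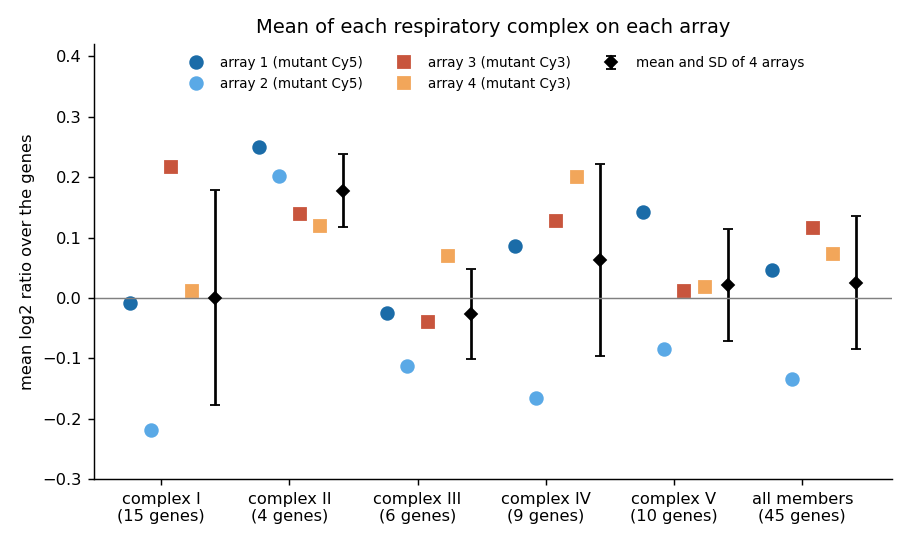
Mean log2 ratio over the genes of each complex on each array (circles and squares), with the mean and SD of the 4 arrays (diamonds and bars). In the values as deposited, complex II lies above 0 on every array, and array 2 is the lowest array of complexes I, III, IV and V.

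Few subunits kept a sign across arrays. The ratio had the same sign on all 4 arrays in 6 of the 45 (13.3%), namely Sdhb, Cox5a and Atp5o above 0 and Ndufb3, Uqcrc2 and Atp5a1 below, against 15.9% of all genes. The share was thus near that of the whole table. Over all 45 genes the mean was 0.046, -0.13, 0.12 and 0.073 on arrays 1 to 4, or 0.025 ± 0.11, and array 2 was the only one below 0.

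More subunits were split between the pairs of arrays with opposite dye orientation. In 15 of the 45 (33.3%) arrays 1 and 2 lay on one side of 0 and arrays 3 and 4 on the other, against 17.4% of all genes. No test was made of that difference, and the pattern was noticed in these data. Of the 15, 10 were low on arrays 1 and 2 and high on arrays 3 and 4: Ndufa1, Ndufa5, Ndufa8, Ndufa9, Uqcrb, Uqcrq, Cycs, Cox6b1, Cox7b and Atp5h. The other 5, high first and low after, were Ndufb5, Ndufv1, Sdha, Cox4i1 and Atp5d. With the trend over the array surface subtracted, an alternative chosen after seeing the data, 13 subunits were split, 8 of them among the 15, against 15.0% of all genes.

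Cox7b had ratios of -0.28 and -0.88 on arrays 1 and 2 and 0.74 and 0.49 on arrays 3 and 4. Ndufa8 had -0.67, -0.63, 0.55 and 0.20, and Ndufa5 -0.30, -0.89, 0.40 and 0.40. For all of them this split is how they were picked. Uqcrb, which binds near the ubiquinone site of complex III, followed with -0.34, -0.85, 0.41 and 0.23. In Cycs all 3 probes were below 0 on arrays 1 and 2, and on arrays 3 and 4 their ratios ran from -0.15 to 0.71. The trend over the array surface made up 12.2% (array 4) to 34.1% (array 1) of the variance of an array. With it subtracted, Uqcrb (0.24, -0.58, 0.14 and 0.18) and Cycs (-0.33, -0.45, 0.13 and -0.022) were no longer split. Cox7b, Ndufa5 and Ndufa8 stayed split, with Ndufa8 at -0.047, -0.17, 0.36 and 0.083.

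If arrays 3 and 4 were deposited the opposite way round from arrays 1 and 2, these genes would lie farthest from 0 on average. With that sign turned, the means were -0.60 ± 0.27 for Cox7b, -0.52 ± 0.26 for Cycs, -0.51 ± 0.21 for Ndufa8 and -0.50 ± 0.27 for Ndufa5 (n = 4 arrays). These 4 of the 45 subunits had an unadjusted limma p under 0.05, against 7.95% of all genes, and each had an adjusted p of 0.622. In that orientation 0 of the 45 subunits passed, as did 0 of all genes, and Sdhb stood at -0.11. Since no gene of the table passed there, the count of 0 subunits in that orientation says nothing about the subunits.

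The promoters of 3 of these genes are shown for comparison with that of Sdhb. Each is the 120 bases before the start site from RefSeq, build GRCm38.p6: Cycs at chr6:50566570-50566689 on the minus strand, Ndufa8 at chr2:36049339-36049458 on the minus strand and Cox7b at chrX:106015580-106015699 on the plus strand. Capitals mark the letters GCATGCGC.

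Cycs: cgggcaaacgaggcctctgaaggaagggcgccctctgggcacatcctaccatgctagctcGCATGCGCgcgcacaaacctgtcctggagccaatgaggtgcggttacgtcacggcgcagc

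Ndufa8: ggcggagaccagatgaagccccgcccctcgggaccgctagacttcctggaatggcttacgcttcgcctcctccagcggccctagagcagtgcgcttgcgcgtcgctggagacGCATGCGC

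Cox7b: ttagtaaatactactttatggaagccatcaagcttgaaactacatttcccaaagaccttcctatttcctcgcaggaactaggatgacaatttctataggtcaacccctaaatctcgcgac

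The 8 letters stood in the windows of Cycs, Ndufa8 and Sdhb, whose ratios went different ways, and in none of the 120 bases of Cox7b. The windows of Ndufa5, which are not shown, lacked them as well. Windows of 300 bases, 250 before to 50 after the start, were available for 34 of the 45 genes. That is too few for a statement on the set, so the motif shares are given as a description and were not tested. GCATGCGC on either strand was in a window of 5 of the 34 genes (14.7%), namely Ndufa8, Sdhb, Uqcrc1, Cycs and Cox6a1. It was in a window of 4.35% of the 15247 genes measured on the arrays and of 3.05% of all 27025 genes with one. CCGGAA, the core bound by GABP and other ETS factors, was in 15 of the 34 (44.1%), in 22.6% of the measured genes and in 16.7% of all. AAGATGGC, the core of YY1, was in 3 of the 34 (8.82%), in 3.97% of the measured genes and in 3.19% of all.

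**Figure D4:**
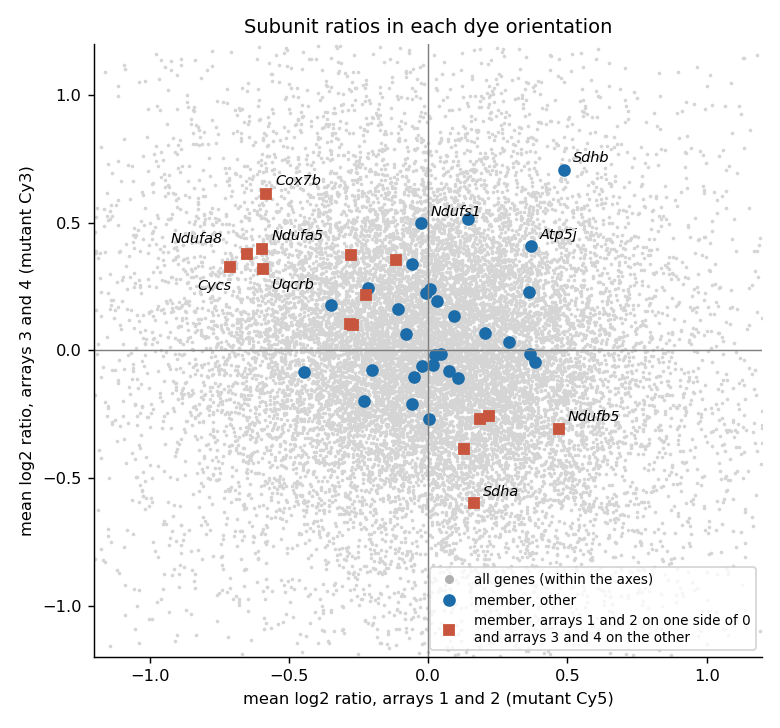
Mean log2 ratio on arrays 1 and 2 (x axis) against arrays 3 and 4 (y axis) for the 45 subunits and, in grey, all genes within the axes. Squares are the 15 subunits split by dye orientation, most of them at the upper left (Cox7b, Cycs, Ndufa8, Ndufa5, Uqcrb). Sdhb and Atp5j lie at the upper right.

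The complexes were also set out by dye orientation and by wild-type animal. The mean of complex I was -0.11 on arrays 1 and 2 and 0.11 on arrays 3 and 4, and that of complex IV -0.039 and 0.16. The corresponding values were 0.23 and 0.13 for complex II, -0.069 and 0.015 for complex III and 0.029 and 0.015 for complex V. By wild-type animal, complex I stood at 0.10 on the arrays with animal 2 and -0.10 on those with animal 4, and the other complexes differed by less. Over the 45 genes, which share the arrays and their dye and spatial effects, ratios correlated at r = 0.39 between arrays 1 and 2 and 0.24 between arrays 3 and 4. Between arrays of opposite orientation r ran from -0.42 to -0.054, whereas over all genes it ran from -0.13 to 0.18.

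The transcripts encoded in mitochondrial DNA, of which 2 of 13 listed had a named probe, were split in the same way. COX2, a catalytic core subunit of complex IV, had log2 ratios of -0.43, -0.67, 1.18 and 0.36, and ND4L, a membrane subunit of complex I, -0.53, -0.61, 1.54 and 0.71. Both were below 0 on arrays 1 and 2 and above 0 on arrays 3 and 4. The serum albumin gene Alb, a hepatocyte marker, was split the other way with 0.86, 0.81, -0.75 and -0.89. The part of the dyes in any of these values was not tested.

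The remaining nuclear subunits and the genes around the chain were without calls too, except that 2 carriers passed when the shared wild-type mouse was a random effect. Of 21 other complex I subunits measured, 0 rose and 0 fell, with a median of 0.0035. Among those of a single sign the highest was Ndufa10 at 0.29 ± 0.088 and the lowest Ndufs7, a core iron-sulfur subunit, at -0.35 ± 0.14. The 5 other subunits of complexes III and IV had a median of -0.074 and the 5 of complex V 0.16, with 0 calls each, and Atpif1, the inhibitor of the ATP synthase, stood at 0.16 ± 0.047. Of 7 isoforms of complex IV from muscle and other tissues, 0 were called and the median was 0.46. Cox7a1, a muscle form, had ratios of 0.17, 2.96, 0.28 and 0.13, so its mean of 0.88 rested on array 2, and Cox7b2 stood at -0.47 ± 0.39. Markers of skeletal and heart muscle had a median of -0.00023, from Acta1 at 0.37 to Myh6 at -0.23 among those of a single sign, and 0 of 11 passed. Of 41 assembly factors 0 passed either way, with a median of -0.033, from Ndufaf3 at -0.40 ± 0.18 to Ecsit at 0.35 ± 0.18 among those of a single sign, both of which serve complex I.

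Upstream of the chain, 18 citric acid cycle and pyruvate dehydrogenase genes had a median of -0.22, and 13 of the 18 lay below 0, with 0 calls. Idh3a, of the NAD-dependent isocitrate dehydrogenase, stood at -0.58 ± 0.52 and Pdhb, of pyruvate dehydrogenase, at 0.52 ± 0.35. Of 14 genes of other electron entry points and ubiquinone synthesis, 0 passed and the median was -0.15. Etfdh, which passes electrons from fatty acid oxidation to ubiquinone, had ratios of -0.66, -0.84, -0.78 and -0.14 and a limma adjusted p of 0.606, and Coq5 stood at 0.27 ± 0.26. The median of 15 carriers, porins and uncoupling proteins was -0.10, with 0 calls. Slc25a20, the carnitine-acylcarnitine carrier, came nearest to the threshold, with ratios of -1.32, -1.10, -1.70 and -1.46 and a limma adjusted p of 0.0687. Slc25a1, the citrate carrier, stood at 1.01 ± 0.25 with an adjusted p of 0.156. Both passed in limma with a random effect for the wild-type mouse, at adjusted p-values of 0.0139 for Slc25a20 and 0.0418 for Slc25a1. The correlation within an animal was estimated there at -0.37, which makes standard errors smaller. That fit was therefore a looser test, with 194 of all genes past the threshold, against 47. Of 15 regulators of mitochondrial biogenesis 0 passed, with a median of -0.090, Ppargc1a, the coactivator that drives many of these genes, at -0.98 ± 0.51 and Ssbp1, a mitochondrial DNA-binding protein, at 0.16 ± 0.13.

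Marker lists of other cell types were taken as a measure of tissue makeup. Red blood cell markers had 1 call, Alas2, the first enzyme of heme synthesis in red cells, at 2.45 ± 0.48, 5 of 5 above 0 and array means from 0.61 to 1.34. Adipocyte markers had 1, Elovl3, an elongase that hepatocytes also express, and a median of 0.47. Hepatocyte markers had a median of 0.093 and 0 calls. Ass1, of the urea cycle, stood at 1.19 (limma adjusted p 0.108, or 0.0302 in the looser fit with the random effect). Hnf4a, a hepatocyte transcription factor, was at -0.65. The medians of the Kupffer, endothelial, stellate, bile duct, lymphocyte and neutrophil lists were 0.052, -0.16, -0.11, 0.0060, 0.22 and -0.11, with 0 calls each. Of a single sign in those lists, Cd5l stood at 0.44, Pecam1 at -0.11, Egfl7 at -0.71, Ngfr at 0.13, Colec11 at -0.53, Cdh1 at 0.72, Ighm at 0.57, Cd79a at 0.22 and Lcn2 at -1.34, and of the red cell list Hbb-bt stood at 0.65. The part of these markers in the subunit ratios was not tested.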

How the data were processed

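Log ratios of 4 two-colour arrays, as deposited by the authors in the series' value table and read as log2, were used, 1 per probe and array, with 0 missing values. Limma is named, without a version, per the submitters' processing notes. Which background correction, normalization or filter came before, and which way the ratios run, the labels used here do not state. The log base is an assumption, and the extremes of the values, -8.54 and 7.54, do not settle it. Probe identifiers were read as feature numbers on a layout of 85 columns. Medians of the arrays lay between -0.0083 and 0.012, and SDs over probes between 0.66 and 0.90.

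Of 43379 probes, 33653 had 1 gene symbol, 56 several and 9670 none. Probes of a gene were averaged, which gave 19087 genes. The 45 subunits had 61 probes, with several in 12 genes, of which 6 had probe means of opposite sign. Limma 3.58.1 in R 4.3.3 gave the test of every gene (intercept only, two-sided, default prior), adjusted over all genes, at a threshold of 0.05. All replicates are separate mutants, but wild-type animals are shared and the test takes no account of it. The correlation within a wild-type animal was estimated at -0.37, and with it as a random effect 2488 genes had an unadjusted p under 0.05, against 1268 without. A negative correlation makes standard errors smaller, so that fit was a looser test.

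Members, gene lists, motifs and tests were chosen with earlier results of these data known. Genes given with all 4 ratios were, in each complex, the highest, the lowest and any with an unadjusted p under 0.05, and genes whose probes lay over 1 apart. From each companion list the highest and lowest gene of a single sign were named. Other genes given in full (the dye-split subunits, mitochondrial transcripts, Alb, Slc25a1 among them) were named after their values were seen where they fall outside that rule. Alternatives were the sign of arrays 3 and 4, leaving out each array, scaling, centring, the median over probes, a spatial trend (running median over 11 by 11 spots), the wild-type animal as a block, a dye coefficient and single probes.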

Additional observations from a re-analysis of the deposited data

Results flagged for a closer look

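Dixon's test takes the gap between the most extreme array and its nearest neighbour as a share of the range over the 4 arrays. In 2 of the 45 subunits this share passed the critical value of the test, which chance gives in about 1 in 20. The share was 0.863 in Uqcrc2 and 0.864 in Atp5b. Uqcrc2 was at -0.37 on array 2 and between -0.086 and -0.042 on the others. Atp5b was at 0.18 on array 3 and between -0.098 and -0.060 on the others. Of the 5 complex means and the mean of all subunits, 0 stood apart in this way.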

How the results depend on the processing

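No subunit passed the adjusted threshold under any of the 12 alternatives run, although the count of all genes past it ran from 0 (arrays 3 and 4 turned, and without replicate 2 or 4) to 194 (a random effect for each wild-type mouse), with 47 as reported, 15 after scaling the arrays and 122 with the spatial trend subtracted. At an unadjusted p the subunits numbered 0 to 4. The count of subunits with the same sign on every array was 6, and 15 with arrays 3 and 4 turned. Leaving out each replicate gave 6 to 13, since fewer arrays have to share a sign. With arrays 3 and 4 turned, complex I moved to -0.11, complex II to 0.049, complex IV to -0.10 and the mean of all subunits to -0.069. Leaving out each replicate took complex I from -0.072 to 0.073, complex III from -0.059 to 0.0017, complex IV from 0.016 to 0.14, complex V from -0.018 to 0.057 and all subunits from -0.0051 to 0.079. The median over probes took complex II to 0.27, and with the spatial trend subtracted complex II was 0.26 ± 0.20 and complex III 0.059 ± 0.21. The mean changed sign in 24 of the 45 subunits on turning arrays 3 and 4 and in 15 with the spatial trend subtracted. It changed sign in 4 after scaling the arrays, in 1 after centring and in 2 with the median over probes. On leaving out at least 1 replicate it did so in 23. Among the 11 subunits named by rule, turning changed the sign of Ndufs1 (-0.26), Sdha (0.38), Sdhb (-0.11), Cox8a (0.028) and Atp5j (-0.020). Among the same 11, the sign also changed for Sdha with the median over probes (0.14), for Uqcrc2 with the trend subtracted (0.058) and on leaving out single replicates, for Ndufs1 (-0.24 to 0.54), Sdha (-0.37 to 0.032) and Cycs (-0.40 to 0.027). The causes were not tested. The split by dye orientation covered 15 subunits under scaling, which cannot change the sign of a ratio on a single array, and 15 under centring. It covered 14 with the median over probes and 13 with the spatial trend subtracted, of which 8 were among the original 15. All of these settings were chosen for that count after seeing the data. Each ratio already pairs a mutant with a wild-type mouse on the same array. No further paired analysis was made, since the arrays form 1 group. Signal over background was not used here, so dim probes could not be left out.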
